A study of Homo sapiens with 5 samples.

Results

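The genes described here encode the proteins that make, carry and act on small RNAs in RNA interference: the Argonautes AGO1, AGO2, AGO3 and AGO4, the nuclease DICER1 and its partner TARBP2, the GW182 scaffold proteins TNRC6A, TNRC6B and TNRC6C, and the nuclear exporter XPO5. They were chosen by name, and each of the 10 symbols matched a row of the 64252 gene rows counted. Their RNA was measured by sequencing polyA RNA of RPE-1, a human cell line immortalized from the pigment epithelium of the retina, 48 hr after siRNA transfection with Lipofectamine RNAiMAX. The siCtrl group (3 libraries) received a non-targeting control siRNA and the siFAM53C group (2 libraries) a pool of siRNAs against FAM53C, each at 5 µM by the labels, in cells labelled wild type and FAM53C knock-down. All 5 libraries thus come from cells given siRNA, and no untransfected sample is among them, so the comparison is between siRNAs and gives nothing on transfection itself. The labels do not say whether the replicates were separate cultures, so that the p-values measure the spread between these libraries, which may be technical.

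In RNA interference a short double-stranded RNA is loaded into an Argonaute, which keeps 1 strand as a guide and finds transcripts that pair with it. AGO2 can cut a fully paired target, and a partly paired target is silenced more slowly, through GW182 proteins that bind Argonaute and bring deadenylases and decapping enzymes to the transcript. MicroRNAs reach Argonaute after nuclear cutting by DROSHA, export by XPO5 and a second cut by DICER1, whereas a synthetic siRNA is delivered as a finished duplex. MicroRNAs and transfected siRNAs use the same Argonautes.

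The libraries held between 19260124 and 25615415 counts on genes. CPM below are counts scaled to the library total with TMM factors, and a log2 fold change is siFAM53C minus siCtrl from edgeR's quasi-likelihood fit, with p adjusted by Benjamini-Hochberg over the 15341 genes with enough counts to be tested, and called at an adjusted p under 0.05. The targeted gene was examined first. FAM53C was at 60.9, 59.7 and 57.6 CPM in siCtrl and at 14.2 and 22.3 CPM in siFAM53C, with no overlap. Its log2 fold change was -1.71 (SE 0.19, edgeR adjusted p = 0.00363), and the differences within the library sides defined below were -2.05 and -1.35. On the opposite strand CDC25C and ENSG00000249971 overlap FAM53C by 704 exon bases.

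The label of the cells was checked against markers. Of 12 markers of retinal pigment epithelium, 5 had a mean above 1 CPM (MITF, OTX2, RDH5, LRAT and SERPINF1), led by MITF at 39.9 CPM, and RPE65 and TTR had 0 counts in every library. BEST1, RLBP1, TYR, TYRP1 and PMEL had means of at most 1 CPM. The epithelial keratins KRT8 (mean 285 CPM) and KRT18 were detected, while EPCAM, CDH1 and KRT19 were near 0, and the mesenchymal genes FN1 (mean 5854 CPM), VIM, CDH2, COL1A1 and THY1 were above 1 CPM, 5 of 6 in that list. Of 5 blood and endothelial markers, 0 had a mean above 1 CPM. Summed over its list, the retinal markers held 59.0, 58.3 and 74.3 CPM in siCtrl and 56.7 and 69.2 CPM in siFAM53C, and the groups overlapped. The mesenchymal sums (8827, 9673 and 11937 against 9175 and 11267 CPM) overlapped too. The simple epithelial sum was higher in both siFAM53C libraries (467, 430 and 384 CPM against 500.2 and 502), as was KRT8 (285, 257 and 236 against 319 and 328 CPM, edgeR adjusted p = 0.222). Of the mesenchymal markers, COL1A1, a collagen, was called higher, with 18.3, 15.8 and 18.6 CPM against 29.2 and 29.4 CPM (log2 fold change 0.74, edgeR adjusted p = 0.031). It was called in 1 of the 5 fits without a library, in which its log2 fold change ran from 0.67 to 0.79. CDH2, of the same list, was lower in both siFAM53C libraries, with 299, 289 and 391 CPM against 214 and 266 CPM (log2 fold change -0.44, edgeR adjusted p = 0.237). The blood and endothelial sum was at most 1.36 CPM in any library, and lower in siFAM53C (0.529 and 0.509 CPM) than in siCtrl (at least 0.994 CPM). The part of these marker differences in the results below was not tested.

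A split of the libraries crossed the groups. In a principal component analysis of log2 CPM the leading axis (39.8% of variance) placed siCtrl replicates 1 and 2 at -31.5 and -47.4. It placed siCtrl replicate 3 at 33.7 and siFAM53C replicate 2 at 44.9, with siFAM53C replicate 1 (0.26) between these ends. Differences within each side are given for the genes that passed the test, on the log2(CPM + 0.5) scale. siFAM53C replicate 1 was set beside siCtrl replicates 1 and 2, and siFAM53C replicate 2 beside siCtrl replicate 3. The leading axis does not place siFAM53C replicate 1 with either end, so its side was a choice, and the other choice was not tried. Differences within the sides, and calls from the fit with a term for the library side, rest on this choice. The split was read from the same counts that this fit tests, so a call in it is no separate evidence.

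Among the 10 genes, AGO1 and TNRC6C fell in siFAM53C and the other 8 did not pass the test. AGO1 was at 48.6% of its siCtrl level and TNRC6C at 35.8%. TARBP2, the single gene with a log2 fold change above 0, did not pass. All 10 had enough counts to be tested, 2 were called lower and 0 higher by edgeR (at an unadjusted p under 0.05, 4 lower and 1 higher; by DESeq2, 2 lower and 0 higher). Over all genes tested, edgeR called 3.47% lower, 0.489% higher and 3.96% either way, and DESeq2 6.98% lower and 2.02% higher. Of all genes, 10.5% were lower at that unadjusted threshold and 6.61% higher. Without siFAM53C replicate 1 the count of these genes called lower was 1. The median log2 fold change of the 10 was -0.23, and that of all genes tested 0.016. For 6 of the 10 both siFAM53C libraries lay below every siCtrl library, as for 18.8% of all genes tested, and for 1 they lay above, as for 16.7% (either way, 35.5%). In these bulk samples fewer cells of a kind and less RNA per cell cannot be told apart.

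**Figure D1:**
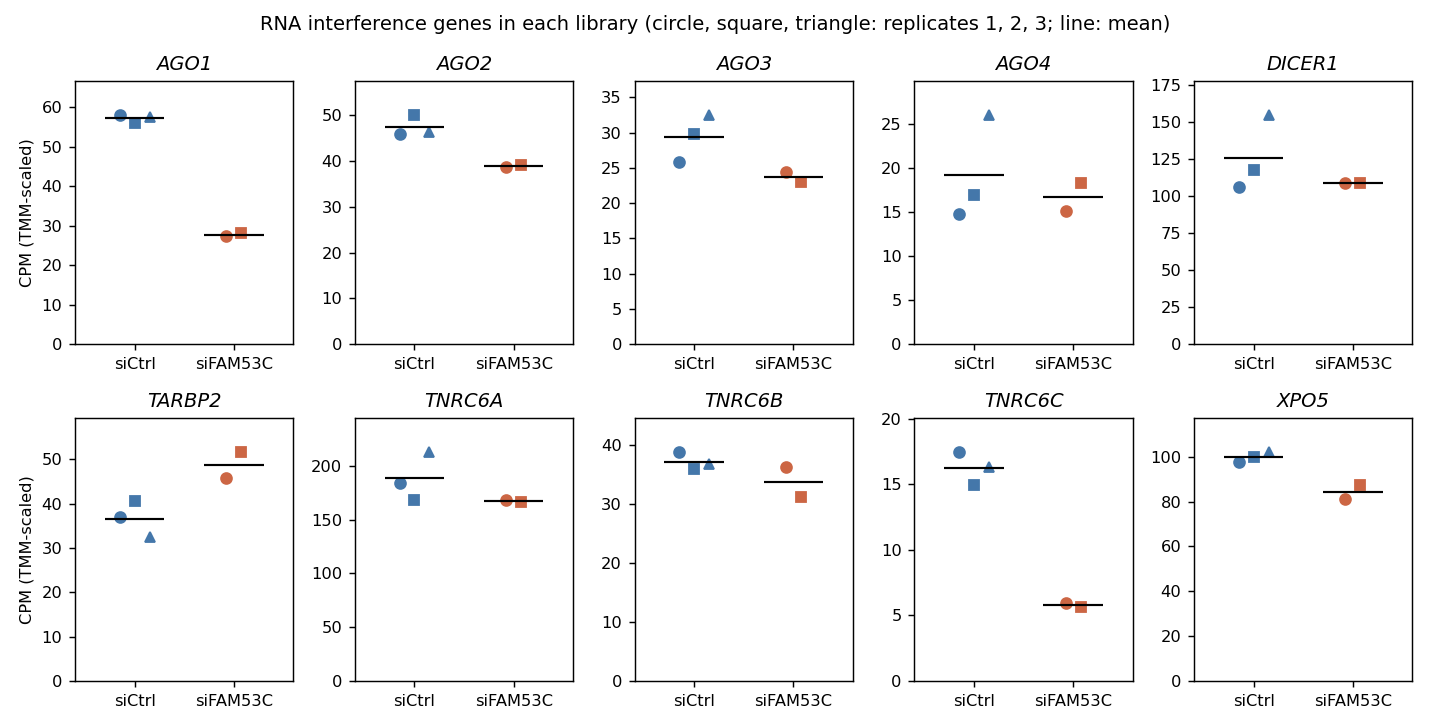
TMM-scaled CPM (vertical axes, each from 0) of the 10 genes in the 3 siCtrl and 2 siFAM53C libraries, with 1 point per library and a line at the group mean. AGO1 and TNRC6C fell to about 27.7 and 5.81 CPM with the points of a group close together, while siCtrl replicate 3 (triangle) was the highest point for AGO3, AGO4, DICER1, TNRC6A and XPO5.

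AGO1 (ENSG00000092847) lies on the plus strand of chromosome 1 of GRCh38 from 35869808 to 35930532. It encodes an Argonaute that carries guide RNAs and silences without efficient cutting. It had 1365, 1069 and 1099 counts in siCtrl and 725 and 662 in siFAM53C, which is 57.9, 55.9 and 57.6 CPM against 27.4 and 28.1 CPM. The groups did not overlap, and the lowest siCtrl value was far above the highest siFAM53C value. Group means were 57.2 ± 1.07 CPM (SD, n = 3) for siCtrl and 27.7 ± 0.49 CPM (SD, n = 2) for siFAM53C. AGO1 changed by a log2 fold change of -1.04 (SE 0.11, 95% interval -1.29 to -0.79, edgeR adjusted p = 0.00236). The differences within the sides were -1.04 and -1.02. AGO1 shares 396 exon bases with ENSG00000271914 on the opposite strand, a gene with at most 7 counts in any library.

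AGO1 has a long 3′ UTR of 10925 bases. The 7 letters GACAAGA were taken from an earlier analysis of these counts, which had set transcripts with and without them in the 3′ UTR side by side. Of the 10 genes, 3 hold this heptamer in their longest annotated 3′ UTR: AGO1 and AGO3 at 2 places each, and XPO5 at 1. FAM53C itself holds it at 1 place. Of the 12075 tested genes with an annotated 3′ UTR, 11.6% hold it, and of the 124 whose 3′ UTR is at least as long as that of AGO1, 55.6% do. These sites are shown so that AGO1, the called gene that holds the heptamer, can be set beside AGO3 and XPO5, which hold it and were not called. Each is read 5′ to 3′ on the transcript's strand from GENCODE transcripts on GRCh38, with the heptamer in capitals:
AGO1, first site, chr1:35922257-35922285, plus strand: ctttgggcaatGACAAGAaatgagttctt
AGO1, second site, chr1:35927291-35927319, plus strand: tcatttcatatGACAAGAaatcctaattt
AGO3, chr1:36070524-36070552, plus strand: ttgttgcaacaGACAAGAttttttttaaa
XPO5, chr6:43522702-43522730, minus strand: tccagtccactGACAAGAgggtttccccg
FAM53C, chr5:138347127-138347155, plus strand: agactggccggGACAAGAtaaacggagct

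The 2 sites of AGO1 begin 2661 and 7695 bases into its 3′ UTR, and the site shown for AGO3 14790 bases into a 3′ UTR of 16755 bases. TNRC6C, the other called gene, holds none in 3977 bases. The heptamer is thus present in 1 of the 2 called genes and in 2 of the 8 others. Over all tested genes with a 3′ UTR, the median log2 fold change was -0.18 for the 1400 that hold it and 0.020 for the other 10675, of which 15.1% and 2.92% were called lower. This restates the comparison that the heptamer was taken from. Where 3′ UTRs are at least as long as that of AGO1 these medians were -0.17 (9 of 69 called lower) and -0.13 (7 of 55 called lower). A match is a stretch of letters and not a measured binding site, and its part in the level of AGO1 was not tested.

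None of the other Argonautes was called (edgeR, 1 at an unadjusted p under 0.05, AGO2; 0 by DESeq2). AGO2 (ENSG00000123908, chromosome 8), the Argonaute that cuts targets and the main effector of siRNA, was at 45.9, 49.97 and 46.4 CPM in siCtrl and 38.6 and 39.0 CPM in siFAM53C. Both siFAM53C libraries were below all siCtrl libraries, by a small margin. edgeR put the log2 fold change at -0.29 (95% interval -0.54 to -0.037, edgeR adjusted p = 0.232), so that a fall as large as that of AGO1 lies outside the interval.

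AGO3 (ENSG00000126070), an Argonaute close to AGO2 in sequence, starts on the same strand of chromosome 1 at 35930718, just past the end of AGO1, and ends at 36072500. It was at 25.8, 29.8 and 32.4 CPM in siCtrl and 24.4 and 23.0 CPM in siFAM53C. The groups did not overlap, but the lowest siCtrl and the highest siFAM53C library differed by little. This gave a log2 fold change of -0.31 (95% interval -0.65 to 0.030, edgeR adjusted p = 0.338).

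AGO4 (ENSG00000134698), an Argonaute without cutting activity, lies on the other side of AGO1, from 35808016 to 35857890 on the same strand. It was at 14.8, 17.0 and 26.04 CPM in siCtrl and 15.2 and 18.4 CPM in siFAM53C. The groups overlapped, with siCtrl replicate 3 the highest library. Its log2 fold change was -0.20 (95% interval -0.79 to 0.39, edgeR adjusted p = 0.77), and it was above 0 without siCtrl replicate 3 (0.085). Of the 3 neighbouring Argonaute genes of chromosome 1, AGO1 was thus the one called.

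**Figure D2:**
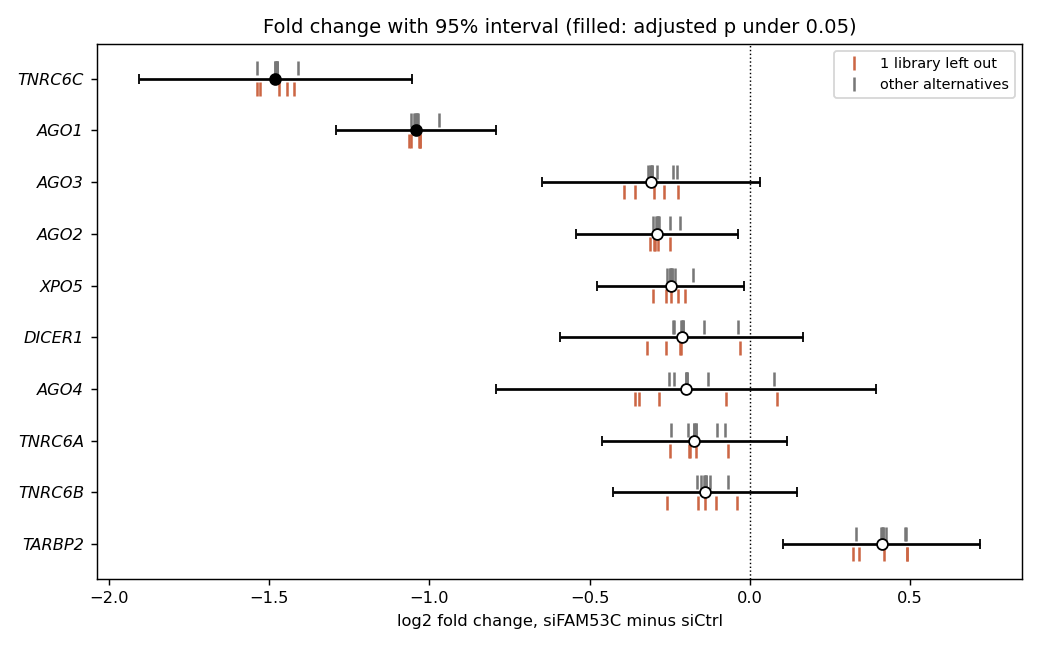
Log2 fold change (horizontal axis, siFAM53C minus siCtrl) of the 10 genes with its 95% interval, filled where the edgeR adjusted p was under 0.05, with ticks for fits without 1 library and for other alternatives. All ticks of TNRC6C and AGO1 lie well below 0, and those of AGO4 cross it.

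Counts per kilobase of exon (RPKM) allow the levels of the 4 genes to be compared, if their annotated exons are transcribed in full. These include 3′ UTRs of 10925 (AGO1), 11888 (AGO2), 16755 (AGO3) and 4285 bases (AGO4), and their use in these cells was not tested. As a share of Argonaute counts without length correction, AGO3 (19.1%) stood above AGO4 (12.5%) in siCtrl, the reverse of their order below. In siCtrl, AGO1 had the highest mean level, 4.07 ± 0.08 RPKM (SD, n = 3), followed by AGO2 (2.99 ± 0.14), AGO4 (2.60 ± 0.80) and AGO3 (1.39 ± 0.16). The levels of AGO1 and AGO2 did not overlap between the siCtrl libraries, and those of AGO2 and AGO4 did. In siFAM53C the order of the means was another one. AGO2 led with 2.45 ± 0.02 RPKM (SD, n = 2), AGO4 had 2.26 ± 0.30, AGO1 1.98 ± 0.03 and AGO3 1.12 ± 0.05, with AGO2 and AGO4 overlapping.

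Of the summed Argonaute RPKM, AGO1 took 40.3%, 36.8% and 34.0% in siCtrl and 25.7% and 24.9% in siFAM53C. The groups did not overlap, with a difference of -11.7 percentage points (exact permutation test over the 10 arrangements of the libraries, two-sided, p = 0.1, the smallest it can give for 3 against 2 libraries). The share of AGO2 was 27.2 ± 2.59% (SD, n = 3) under siCtrl and 31.4 ± 0.99% (SD, n = 2) under siFAM53C, a difference of 4.18 percentage points by the same exact test (p = 0.2). For AGO4 the difference was 5.68 points (exact permutation p = 0.3) and for AGO3 1.82 points (exact permutation p = 0.1). The shares of a library add up to the whole, so these positive differences mirror the AGO1 share, and the mean RPKM of AGO2, AGO3 and AGO4 were each lower in siFAM53C than in siCtrl. The 4 Argonautes together held 10.2, 10.8 and 12.1 RPKM in siCtrl and 7.59 and 8.03 RPKM in siFAM53C, without overlap (exact permutation p = 0.1).

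**Figure D3:**
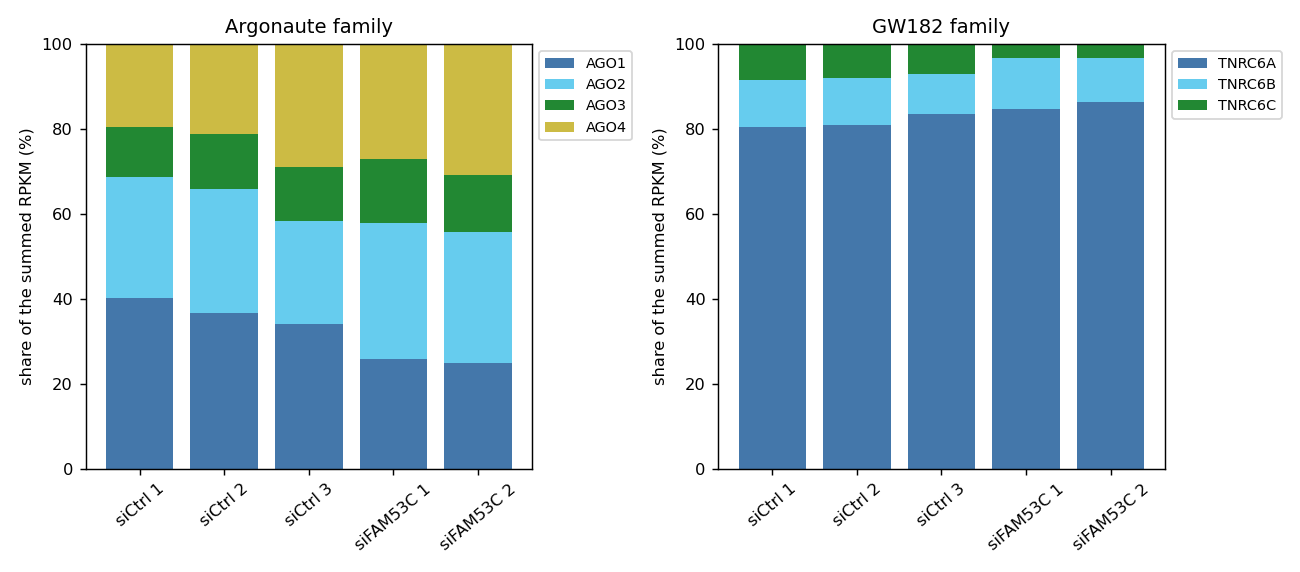
Share of each paralogue in the summed RPKM of its family (vertical axis, percent) in each library, for the 4 Argonautes (left) and the 3 GW182 genes (right). The AGO1 band is 34.0% or more in siCtrl and at most 25.7% in siFAM53C, and the TNRC6C band at least 7.12% and at most 3.36%.

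Of the GW182 genes, whose proteins join Argonaute to the deadenylases, TNRC6C (ENSG00000078687, chromosome 17, 77958703 to 78108822, plus strand) fell. It had 411, 285 and 311 counts in siCtrl and 158 and 133 in siFAM53C, which is 17.4, 14.9 and 16.3 CPM against 5.97 and 5.64 CPM. No library of a group reached the range of the other. The log2 fold change was -1.48 (SE 0.18, 95% interval -1.91 to -1.05, edgeR adjusted p = 0.00516), with -1.36 and -1.45 within the sides. Without siFAM53C replicate 1 the value was -1.53 and just missed the threshold (edgeR adjusted p = 0.0516). TNRC6C shares 1426 exon bases with TMC6 on the opposite strand, which had from 14 to 29 counts per library and a log2 fold change of 0.30.

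TNRC6A and TNRC6B encode the other two GW182 proteins. TNRC6A (ENSG00000090905, chromosome 16, 24610209 to 24827632) was at 184, 168 and 213 CPM in siCtrl and 168 and 166 CPM in siFAM53C. The siFAM53C libraries were the lowest, at nearly the level of siCtrl replicate 2. edgeR put the log2 fold change at -0.17 (95% interval -0.46 to 0.12, edgeR adjusted p = 0.551), and without siCtrl replicate 3 it was -0.070. TNRC6B (ENSG00000100354, chromosome 22, 40044817 to 40335808) was at 38.8, 35.9 and 36.7 CPM against 36.2 and 31.2 CPM, an overlap, with a log2 fold change of -0.14 (95% interval -0.43 to 0.15, edgeR adjusted p = 0.646). Leaving out siFAM53C replicate 1 gave -0.26 for TNRC6B, and leaving out replicate 2 gave -0.039.

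TNRC6A made up most of the family. It held 81.6 ± 1.66% (SD, n = 3) of the summed RPKM in siCtrl, TNRC6B 10.5 ± 1.01% and TNRC6C 7.86 ± 0.69%. In siFAM53C the share of TNRC6C was 3.31 ± 0.07% (SD, n = 2), a difference of -4.55 percentage points without overlap (exact permutation p = 0.1, the smallest possible). The summed level was 17.8 ± 1.80 RPKM in siCtrl and 15.1 ± 0.28 RPKM in siFAM53C, and the 2 siFAM53C libraries were the lowest (exact permutation p = 0.2).

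DICER1 (ENSG00000100697, chromosome 14, 95086228 to 95158010, minus strand), which cuts precursor hairpins into microRNA duplexes, was at 106, 117 and 154 CPM in siCtrl and 108 and 109 CPM in siFAM53C. The groups overlapped, and siCtrl replicate 3 stood above the other libraries. This gave a log2 fold change of -0.21 (95% interval -0.59 to 0.17, edgeR adjusted p = 0.585), and without siCtrl replicate 3 it was -0.032.

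TARBP2 (ENSG00000139546, chromosome 12, 53500921 to 53506431, plus strand) encodes the double-stranded RNA binding partner of DICER1. It was at 37.0, 40.5 and 32.4 CPM in siCtrl and 45.9 and 51.6 CPM in siFAM53C. Both siFAM53C libraries were above every siCtrl library. Its log2 fold change was 0.41 (SE 0.13, 95% interval 0.10 to 0.72, edgeR adjusted p = 0.165), which missed the threshold over all genes. With a term for the library side it was 0.43 and passed (edgeR adjusted p = 0.0176), in a fit that called 6.76% of all genes higher. Of its exon bases, 541 are shared with ENSG00000270175 on the opposite strand, which had at most 13 counts in any library.

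XPO5 (ENSG00000124571, chromosome 6, 43522334 to 43576038, minus strand), which carries precursor hairpins out of the nucleus, was at 97.8, 99.9 and 102 CPM in siCtrl and 81.1 and 87.2 CPM in siFAM53C. The groups did not overlap. The log2 fold change was -0.25 (95% interval -0.48 to -0.018, edgeR adjusted p = 0.255). With the term for the library side it was -0.26 and passed (edgeR adjusted p = 0.0394), where 10.7% of all genes were called lower. XPO5 shares 348 exon bases with POLR1C, which had from 327 to 622 counts.

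Ordered by RPKM in siCtrl, the 10 genes ran from TNRC6A (14.5 ± 1.74, SD, n = 3) through XPO5 (11.8 ± 0.25), TARBP2 (8.96 ± 0.99), DICER1 (5.68 ± 1.14), AGO1, AGO2, AGO4, TNRC6B (1.86 ± 0.07) and TNRC6C (1.39 ± 0.11) to AGO3. The neighbours AGO2 and AGO4, and TNRC6C and AGO3, overlapped between the siCtrl libraries and the other neighbours did not. In siFAM53C, TARBP2 stood above XPO5, AGO1 below AGO2 and AGO4, and TNRC6C (0.50 ± 0.02 RPKM, SD, n = 2) below AGO3. With the longest coding transcript as the length, TARBP2 came first in siCtrl (24.3 RPKM, against 22.2 for TNRC6A), since its exon bases over all transcripts (4090) are far more than its longest coding transcript (1510).

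**Figure D4:**
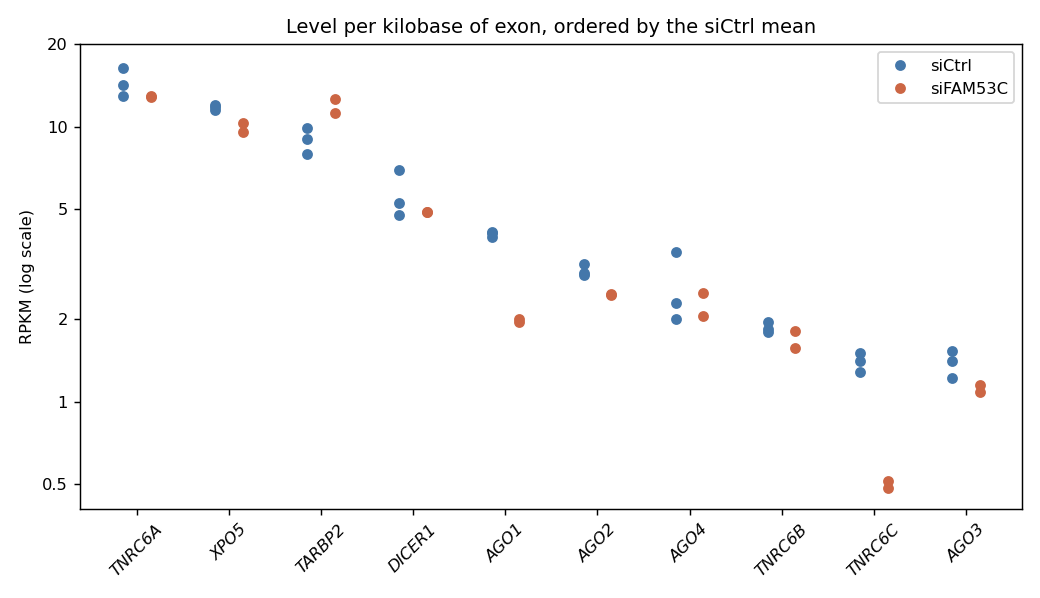
RPKM (vertical axis, log scale) of the 10 genes, ordered by the siCtrl mean, with 1 point per library. The siFAM53C points of AGO1 (1.98 RPKM on average) and TNRC6C (0.50 RPKM) lie clearly below the siCtrl points, and those of TARBP2 above.

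The rest of the small RNA pathway was followed in 7 lists with 103 genes, of which 96 were tested. In these lists 4 genes were called lower (DROSHA, TSNAX, CNOT7 and CNOT2) and 2 higher (ANKRD52 and MIR100HG), which is 4.17% lower beside 3.47% of all genes, and 2 of 96 higher beside 0.489%. The median log2 fold change was -0.032. For the counts per list below, the shares over all genes at an unadjusted p under 0.05 were 10.5% lower and 6.61% higher. By DESeq2 they were 6.98% lower and 2.02% higher. Without siCtrl replicate 3 the counts were 7 lower and 7 higher, and without any 1 other library 3 lower and 0 higher.

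The nuclear processing and export list has 12 genes, all tested, of which 1 was called lower and 0 higher by edgeR (at an unadjusted p under 0.05, 5 lower and 0 higher; by DESeq2, 2 and 0), with a median of -0.16. DROSHA (ENSG00000113360, chromosome 5, 31400494 to 31532196, minus strand), the nuclease that cuts primary microRNA transcripts, was at 101, 96.1 and 104 CPM in siCtrl and 38.8 and 44.8 CPM in siFAM53C. The lowest siCtrl library was above both siFAM53C libraries by a wide margin. edgeR put the log2 fold change at -1.27 (SE 0.12, edgeR adjusted p = 0.00149), with -1.34 and -1.20 within the sides, and its 3′ UTR of 938 bases does not hold the heptamer.

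DGCR8, the partner of DROSHA, was not called (log2 fold change -0.095), with 69.6, 61.5 and 71.4 CPM in siCtrl and 58.5 and 67.9 CPM in siFAM53C. By mean CPM, which is not corrected for length, the highest genes of the list were RAN, the GTPase that powers export by XPO5, and DDX5, a helicase that works with DROSHA. RAN had a log2 fold change of -0.23 (edgeR adjusted p = 0.546), with -0.10 without siCtrl replicate 2 and -0.35 without siCtrl replicate 3. DDX5 was at 622, 589 and 641 CPM against 411 and 497 CPM, with a log2 fold change of -0.44 (edgeR adjusted p = 0.117), and it was called lower by DESeq2 (adjusted p = 0.0184), by edgeR without the filter on low counts (adjusted p = 0.0453) and with the term for the library side (adjusted p = 0.000594).

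Of 6 genes of Dicer partners and siRNA handling, all tested, 1 was called lower and 0 higher by edgeR (2 and 0 at an unadjusted p under 0.05; 1 and 0 by DESeq2), with a median of -0.065. TSNAX (ENSG00000116918, chromosome 1, 231528541 to 231566524, plus strand) encodes translin-associated factor X, the catalytic part of the C3PO nuclease that clears the passenger strand of siRNA. It was at 36.0, 39.0 and 34.6 CPM in siCtrl and 10.8 and 13.3 CPM in siFAM53C, without overlap. This gave a log2 fold change of -1.60 (SE 0.15, edgeR adjusted p = 0.00196), with -1.75 and -1.35 within the sides. TSNAX shares 653 exon bases with the readthrough gene TSNAX-DISC1, which had at most 6 counts.

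TSN, which encodes translin, the other part of C3PO, was at 108, 108 and 102 CPM in siCtrl and 116 and 117 CPM in siFAM53C. Its log2 fold change was 0.14 (95% interval -0.081 to 0.36, edgeR adjusted p = 0.524), so that a fall of the size seen for TSNAX lies outside the interval. DHX9, the gene of the list with the highest mean CPM and a helicase that associates with Dicer, had a log2 fold change of -0.074 (edgeR adjusted p = 0.788).

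Of 13 chaperones that load Argonautes, all tested, 0 were called by edgeR in either direction. At an unadjusted p under 0.05, 3 were lower and 0 higher, DESeq2 called 1 lower and 0 higher, and the median was -0.12. The highest by mean CPM were HSP90AA1 (log2 fold change -0.072) and HSPA8 (-0.31, edgeR adjusted p = 0.23), both parts of the machine that opens Argonaute for the duplex. HSPA8 was at 2578, 2715 and 2510 CPM in siCtrl and at 2107 and 2083 CPM in siFAM53C, with no overlap, and it was called lower with the term for the library side (edgeR adjusted p = 0.0085).

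Of 21 genes of Argonaute turnover and modification, 18 were tested, 0 were called lower (2 at an unadjusted p under 0.05; 0 by DESeq2) and 1 higher (1 and 1), with a median of -0.090. ANKRD52 (ENSG00000139645, chromosome 12, 56237807 to 56258384, minus strand) encodes a subunit of the phosphatase PP6 that removes phosphates from AGO2. It was at 339, 321 and 411 CPM in siCtrl and 595 and 673 CPM in siFAM53C, with both siFAM53C libraries above all siCtrl libraries. Its log2 fold change was 0.83 (SE 0.14, edgeR adjusted p = 0.0191), with 0.85 and 0.71 within the sides. It was not called without siCtrl replicate 1 or 2 (edgeR adjusted p = 0.113 and 0.122) or either siFAM53C library. The log2 fold change in these fits was 0.79, 0.76, 0.91 and 0.73. P4HB, the highest of the list by mean CPM and a part of the enzyme that hydroxylates AGO2, had a log2 fold change of -0.090.

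Deadenylases act after GW182. Of 18 genes of the CCR4-NOT and PAN complexes and their helpers, all tested, 2 were called lower and 0 higher (2 and 1 at an unadjusted p under 0.05; 2 and 1 by DESeq2), with a median of 0.026. CNOT7 (ENSG00000198791, chromosome 8), a catalytic deadenylase, was at 128, 134 and 127 CPM in siCtrl and 66.9 and 62.0 CPM in siFAM53C. The groups were far apart. The log2 fold change was -1.01 (SE 0.10, edgeR adjusted p = 0.00222), with -0.96 and -1.03 within the sides, and its 3′ UTR holds the heptamer at 1 place. Of the 83 tested genes of the 7 lists with an annotated 3′ UTR, 11 hold the heptamer, and CNOT7 was the 1 of these called lower. The other 72 do not hold it, and 3 of them were called lower (DROSHA, TSNAX and CNOT2). The part of the heptamer in the level of CNOT7 was not tested. CNOT7 shares 2057 exon bases with ENSG00000289145 on the opposite strand, which was not analysed here.

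CNOT2 (ENSG00000111596, chromosome 12, 70243002 to 70354993, plus strand), which holds the complex together, was at 57.9, 59.5 and 63.0 CPM in siCtrl and 37.2 and 39.3 CPM in siFAM53C. edgeR put the log2 fold change at -0.65 (SE 0.11, edgeR adjusted p = 0.0183), with -0.65 and -0.67 within the sides. PRANCR, on the opposite strand, overlaps it by 404 exon bases. CNOT2 was lower but not called without siCtrl replicate 1 or 2 (edgeR adjusted p = 0.0787 and 0.0983) or either siFAM53C library. Its log2 fold change in these fits was -0.68, -0.66, -0.62 and -0.70. The scaffold CNOT1 (-0.19) and the poly(A) binding protein PABPC1 (0.058), the highest of the list by mean CPM, were not called. CNOT8, the close paralogue of CNOT7, was at 51.2, 49.6 and 55.3 CPM against 54.7 and 57.5 CPM and was not called either.

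Of 16 genes of decapping, repression and 5′ decay, all tested, 0 were called by edgeR. At an unadjusted p under 0.05, 1 was lower and 5 higher, beside 10.5% and 6.61% of all genes, and DESeq2 called 0 lower and 3 higher. The median was 0.15, and for 7 of the 16 both siFAM53C libraries were above every siCtrl library, beside 16.7% of all genes tested. For 2 of the 16 they were below, beside 18.8%. Over the 7 lists together, 19 of the 96 tested genes lay above in this way and 24 below. Those below included 5 of 12 genes of nuclear processing and export, 3 of 6 Dicer partners and 5 of 13 chaperones. Those above included 5 of 13 host transcripts. The highest by mean CPM, UPF1 and DDX6, had log2 fold changes of -0.061 and -0.17. The 3 called by DESeq2, named after their values were seen, were EDC3 (0.54, edgeR adjusted p = 0.0514), DCP1A (0.54, 0.0674) and DCP2 (0.53, 0.0913), which encode the decapping enzyme DCP2 and 2 of its cofactors.

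DCP2 was at 37.8, 40.9 and 48.8 CPM in siCtrl and 57.6 and 65.4 CPM in siFAM53C. EDC3 was at 44.9, 38.4 and 38.4 CPM against 58.1 and 59.6 CPM. In each of the 3 genes called by DESeq2 the siFAM53C libraries were the highest. Each missed the threshold in the main edgeR fit. Each passed it with the term for the library side (edgeR adjusted p = 0.00162 for EDC3, 0.00225 for DCP1A and 0.00184 for DCP2), in which 6.76% of all genes were called higher. Scaled by library totals, EDC3 and DCP1A passed (edgeR adjusted p = 0.0369 and 0.0496) and DCP2 did not (0.0708). Each of the 3 was also called in 1 of the fits without a library.

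Of 17 microRNA host transcripts, 13 were tested, 0 were called lower (0 at an unadjusted p under 0.05; 0 by DESeq2) and 1 higher (4 and 1), with a median of 0.55. MIR100HG (ENSG00000255248), the host of miR-100 and of members of the let-7 and miR-125 families, was at 60.1, 57.4 and 70.5 CPM in siCtrl and 93.0 and 91.1 CPM in siFAM53C. The groups did not overlap. This gave a log2 fold change of 0.56 (SE 0.12, edgeR adjusted p = 0.0479), with 0.66 and 0.37 within the sides. It was not called without siCtrl replicate 1 or 2 (edgeR adjusted p = 0.19 and 0.207) or either siFAM53C library. The log2 fold change in these 4 fits was 0.53, 0.50, 0.54 and 0.57. Nor was it called without the robust prior (edgeR adjusted p = 0.0561). MEG3, the host with the highest mean CPM, followed the library split, with 93.5 and 76.1 CPM in siCtrl replicates 1 and 2 and 141 CPM in siFAM53C replicate 1 against 337 CPM in siCtrl replicate 3 and 394 CPM in siFAM53C replicate 2. Its log2 fold change was 0.66 (edgeR adjusted p = 0.798), with 0.74 and 0.22 within the sides, and with the term for the library side it was 0.51 and passed (edgeR adjusted p = 0.0232). Mature microRNAs, which carry no polyA tail, were not measured.

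**Figure D5:**
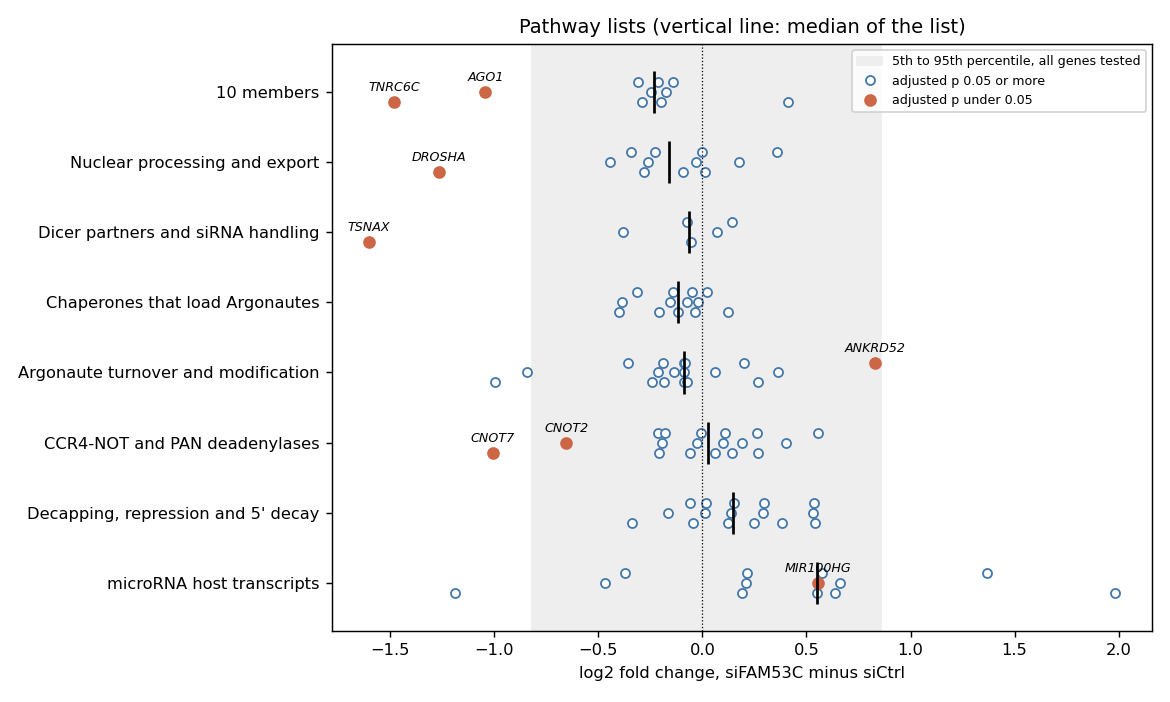
Log2 fold change (horizontal axis, siFAM53C minus siCtrl) of the tested genes of the 10 described genes and of 7 pathway lists, 1 point per gene, filled and named where the edgeR adjusted p was under 0.05, with the median of each list as a vertical line. The grey band spans the 5th to 95th percentile of all genes tested (-0.82 to 0.86), and the points of TNRC6C, AGO1, DROSHA, TSNAX and CNOT7 lie to its left.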

How the data were processed

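Raw counts per gene, not normalized, were deposited by the authors for 5 libraries. Trimming used CutAdapt 2.10, alignment HISAT2 on hg38 with the reverse strand setting, and counting featureCounts. The strand setting of the counting and the annotation release are not given in the sources used here, so values are uncertain where exons of opposite strands overlap. Each column was matched to a sample by the column name in its label; the column of siFAM53C replicate 2 carries the number 3. The methods describe collection in duplicate, and all 3 deposited siCtrl libraries were used. Symbols, positions, exon bases and 3′ UTRs came from GENCODE release 44 (GRCh38), which matched 56105 of 64252 identifiers.

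The tests used edgeR 4.0.16 under R 4.3.3. Low genes were removed by filterByExpr at a minimum count of 10 and a minimum total of 15, and TMM factors were followed by glmQLFit with a robust prior and glmQLFTest with the condition alone, Benjamini-Hochberg adjustment over all genes tested and a threshold of 0.05. Standard errors and 95% intervals were taken from the F statistic and its degrees of freedom. Shares within a family were compared by an exact permutation test. On counts simulated for siFAM53C against siCtrl over 15341 genes, edgeR recovered 47 of 93 tested genes with a log2 change of 1 and 77 of 97 with a log2 change of 2, with 15 of 14719 unchanged genes called; DESeq2 1.42.0 recovered 54 and 78 of 100, with 38 of 15141 unchanged genes called. The simulated counts were drawn gene by gene without the library split, so these rates may not hold for the libraries measured. Depth of 19260124 to 25615415 counts limits the precision for low genes.

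The 10 genes, the lists, the library split and the heptamer were chosen with earlier results of these data known. Named in the text are FAM53C, the 10 genes, the 2 genes of each list with the highest mean CPM, called genes up to 3 in each direction per list, and markers. DGCR8, CNOT8, EDC3, DCP1A, DCP1B and DCP2 were added after their values were seen. Alternatives were DESeq2, other scalings, no filter, replicate blocks, a side term, another length or 3′ UTR and each library left out; the fit without the robust prior was added after seeing the data. Sequences are shown for some of the heptamer matches, and the others are not reported here.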

Additional observations from a re-analysis of the deposited data

How the results depend on the processing

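With the replicate block by titles, by column names and with the term for the library side, 856, 1350 and 1636 genes were lower and 355, 642 and 1037 higher, against 533 and 75. DESeq2 gave 890 and 257, no filter 961 and 375, and library totals 121 higher. Leaving out 1 library gave 157 to 886 lower and 6 to 414 higher, the most without siCtrl replicate 3; the cause was not tested. Members called lower numbered 2 in each alternative except the side term (3, with XPO5) and without siFAM53C replicate 1 (1, AGO1); 1 was higher, TARBP2, with the block by column names and with the side term. DDX5, HSPA8, MEG3, EDC3, DCP1A, DCP2, KRT8 and CDH2 were also called with both of these fits. AGO1, DROSHA, TSNAX, CNOT7 and FAM53C were called in all 13 alternatives, and TNRC6C in 12.

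Pathway genes called lower numbered 4, and 7, 9 and 12 with the block by titles, the block by column names and the side term, and 3 to 7 without 1 library. Those called higher numbered 2, and 7, 8 and 12 in the same fits, 6 with DESeq2, 6 with no filter, 4 with library totals, 1 without the robust prior and 0 to 7 without 1 library. Signs turned in named genes that were not called: DGCR8 (-0.21 to 0.0038 without 1 library), FN1 (-0.040 to 0.34), MITF (-0.20 to 0.17), AGO4 (0.074 with the replicate block by titles, -0.36 to 0.085 without 1 library), HSP90AA1 (0.029 with that block, -0.16 to 0.039 without 1 library), MEG3 (-0.26 to 1.66), PABPC1 (-0.055 to 0.16) and UPF1 (0.010 with library totals). Without 1 library, DHX9 ran from -0.12 to -0.040, P4HB from -0.18 to -0.014 and UPF1 from -0.097 to -0.025.

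The AGO1 share kept its direction in each alternative. The difference for TNRC6C was -3.55 percentage points with the longest coding transcript as length, which moved 3 genes to another rank; leaving out 1 siCtrl library moved 0 to 2. The heptamer was in the same number of members with the canonical 3′ UTR (3). Samples with the same number in their titles deviated together with a correlation of 0.17 and -0.28, and in their column names 0.17 and 0.37, and with 2 pairs the numbers were not taken to pair the samples.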
